A study of Mus musculus with 8 samples.

Results

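Cytosolic ribosomal protein genes were chosen by symbol in the platform annotation: Rpl or Rps followed by a 1 or 2 digit number and at most 1 of the endings a, l or x, plus Rpsa. The rule found 65 probes for 63 genes among 23473 probes, of which 20690 had a symbol, for 19321 symbols in all. By their names the probes fell into 36 of the large subunit (35 genes), 24 of the small subunit (23 genes) and 5 paralogs, Rpl3l, Rpl10l, Rpl39l, Rps4l and Rps27l, each with 1 probe. Rpl9 and Rps28 had 2 probes each. Rplp0, Rplp1, Rplp2 and Rps27a have no probe under those symbols in the annotation used and were not analysed here. The 63 genes lay on 18 chromosomes, with the largest numbers on chromosome 7 (9 genes) and chromosome 17 (7 genes).

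The series asked how drinking trehalose, a disaccharide built from glucose, bears on the mouse brain. RNA was measured on 8 one-colour oligonucleotide arrays, 1 per mouse, in wild-type male C57Bl/6J mice aged 9 weeks: 3 had received trehalose for 1 day, 3 for 10 days, and 2 control mice had drunk water and were taken at day 0. In all 3 groups the mice went without food for some hours and were perfused under anesthesia, and the trehalose dose was not given in the sources used here. Water mice were taken at day 0 only, so trehalose and the time of sampling cannot be told apart. The sample labels name cerebral cortex, whereas the design text names a frozen left hemisphere, and the labels do not tell which mice shared a cage.

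Ribosomal proteins and ribosomal RNAs together form the small subunit, which decodes the messenger RNA, and the large subunit, which joins amino acids into protein. The genes are transcribed in nearly every cell, neurons and glia included, because each ribosome needs a copy of nearly every one of these proteins. Many of their messenger RNAs open with a cytosine followed by a run of pyrimidines, the terminal oligopyrimidine tract, through which the mTORC1 pathway controls translation in response to nutrients. That control acts mainly on translation and not on transcript abundance, and an array measures only abundance.

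RefSeq promoter windows on GRCm38.p6, each holding 250 bases before and 50 after an annotated start, were given for 49 of the 63 genes, in 59 windows. At 11 of the 59 annotated starts (18.6%) the base at the start was a C followed by at least 4 further C or T bases. The same held for 823 of 32851 windows of all genes (2.51%). Whether the annotated starts are those used in this tissue was not tested, so a gene without a run there may still carry the tract. The 5 starts below belong to genes whose array values are described further on. Each shows 15 bases before and 15 bases from the start, read along the sense strand, and the capitals mark the pyrimidine run that begins at the start.
Rps6 (chr4:86857353-86857382, minus strand): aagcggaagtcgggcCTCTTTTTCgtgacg
Rps10 (chr17:27635230-27635259, minus strand): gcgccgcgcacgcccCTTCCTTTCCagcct
Rpl15 (chr14:18270972-18271001, minus strand): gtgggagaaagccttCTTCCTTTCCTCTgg
Rpl28 (chr7:4792950-4792979, plus strand): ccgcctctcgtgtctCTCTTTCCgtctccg
Rpl35 (chr2:39005117-39005146, minus strand): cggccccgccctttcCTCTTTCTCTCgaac

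The run was 13 bases long in Rpl15, 11 in Rpl35, 10 in Rps10, 9 in Rps6 and 8 in Rpl28. Over the whole 300-base window and on both strands, CTTTCC occurred in 30 of the 59 windows (50.8%), against 26.6% of all windows. CGGAAGT, a core of Ets-family sites, occurred in 19 (32.2%), against 6.42% of all windows. TATAAA, the TATA box core, occurred in 5 (8.47%), against 13.6% of all windows. CTTTCC may overlap the pyrimidine run itself. A match in these letters is a description of the window and shows no binding.

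The deposited spot values are fluorescence intensities. They were converted to log2 after a background correction that adds 50 to every spot, and the arrays were then brought to 1 common distribution, so every level and change below is relative to the rest of the array. The offset compresses changes of dim probes. On each array 86.3% to 92.1% of all probes lay above the limit set from blank spots, the blank mean plus 2 SD. The scanner read each array at 3 gains, and the header slope joining the first gain to the second took a low value (0.477 to 0.478) on control replicate 1 and on replicates 1 and 3 of 10 days, and a high value (0.485 to 0.487) on the other 5 arrays. All 3 arrays of 1 day were in the high-slope set, so results were also computed within each set. Markers of neurons, astrocytes, oligodendrocytes, microglia and endothelium were above the blank limit on all arrays, but so were 5 of 7 liver probes, so the limit is a lenient one. Of 12 marker lists, the summed intensity of 6 did not overlap between 1-day and control mice, and that of 2 did not overlap between 10-day and control mice. Among all tested single probes, 18.2% and 13.4% did not overlap in these comparisons. The sums are of linear intensities, so a bright gene can set the value of its list. The 50 added to every spot is part of each sum and weighs most in lists of dim probes. The 5 excitatory neuron probes summed to 3916 to 4143 at 1 day and 3801 to 3876 at 10 days, against 4258 to 4281 in controls. The 6 thalamic probes summed to 2343 to 3196 at 1 day and 2466 to 2844 at 10 days, against 1966 to 2279 in controls. Of these 6, 1 probe, of Tcf7l2, was below the blank limit on all arrays. At 1 day the general neuron list (16741 to 17246, against 17363 to 18137 in controls) was also lower. So were the astrocyte list (8718 to 8894, against 9179 to 9926) and the endothelial list (1535 to 1703, against 1734 to 1753). The blood list (263.2 to 321.4, against 257.6 to 258.6) was higher, but only 3 of its 5 genes were measured, by 3 probes with a low sum. The 4 striatal probes overlapped, with 1693 to 4084 at 1 day, 3146 to 3725 at 10 days and 3482 to 4534 in controls. The part of these shifts in the results below was not tested. In whole tissue, fewer cells of a type and less RNA per cell cannot be told apart.

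All 65 probes passed the filter on dim values, and no member spot was flagged as failed. The group was bright: 43 of the 65 probes lay in the brightest 10% of the 21583 tested probes, and 33 gave at least 100 times the blank mean on every array. Rpl41, the shortest ribosomal protein, reached 448 to 552 times the blank mean, and Rps29, a zinc-binding protein of the small subunit, 428 to 575 times. At the other end, 11 probes stayed below 4 times the blank mean on every array. The dimmest of these was Rpl3l, whose human and mouse transcripts are known from heart and skeletal muscle, at 1.05 to 1.24 times the blank mean and above the blank limit on 3 of the 8 arrays. Rpl10l, known from the testis, lay at 1.19 to 1.40 times the blank mean, and Rpl37 at 1.48 to 1.84 times. Probes differ in how strongly they bind, so these values do not rank the genes by abundance.

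With the arrays brought to 1 common distribution, no array stood apart in the level of the members as a group. For each probe the deviation from its own mean over the 8 arrays was taken, and the median over the 65 probes was -0.0029 and -0.0134 on the 2 control arrays. It was 0.0223, -0.0007 and -0.0094 on the 3 arrays of 1 day and 0.0155, 0.0113 and -0.0173 on the 3 arrays of 10 days. The groups overlapped. After the median deviation of all tested probes was subtracted on each array, the highest array exceeded the lowest by 0.037 on the log2 scale. This range depends on the processing: it was 0.115 with median scaling, 0.102 in the authors' table and 0.238 with the background taken beside each spot. On the control arrays 31 and 29 of the 65 probes lay above their own mean. On the arrays of 1 day 38, 32 and 29 did so, and on those of 10 days 39, 36 and 27.

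**Figure D1:**
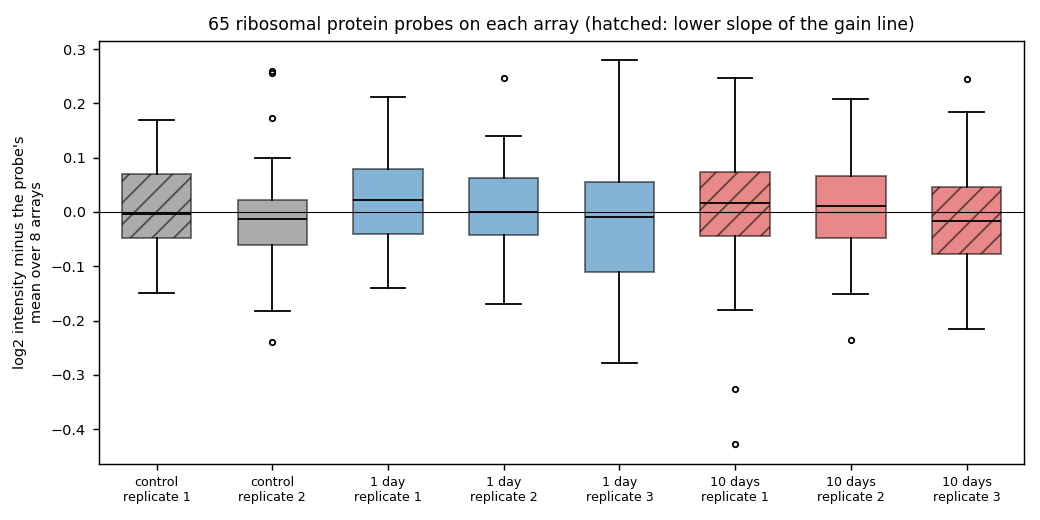
Ribosomal protein probes on each of the 8 arrays, as the deviation of each probe's log2 intensity from its own mean over the arrays (y axis, log2). Boxes span the quartiles of the 65 probes with the median as a line, whiskers reach the farthest probe within 1.5 box heights, circles are probes beyond, and hatching marks the low-slope arrays. With the arrays brought to 1 common distribution, the median lies between -0.0173 and 0.0223 on all 8 arrays.

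After 1 day of trehalose, 38 of the 65 probes were higher and 27 lower than in control mice, against 49.7% higher and 50.3% lower among all tested probes. The median change was 0.01 on the log2 scale, against 0.00 for all tested probes, and single probes ranged between -0.24 and 0.16. By limma with Benjamini-Hochberg adjustment over all 21583 probes, 0 members and 0% of all probes passed an adjusted p of 0.05, and the smallest adjusted p of a member was 1.0. Without adjustment, 0 members had a p under 0.05, against 3.65% of all probes. The groups did not overlap for 11 members, 6 of them higher and 5 lower at 1 day, against 18.2% of all probes (8.97% higher and 9.19% lower).

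After 10 days, 37 members were higher and 28 lower than in controls, against 48.6% higher and 51.4% lower among all probes. The median change was again 0.01, with single probes between -0.26 and 0.15. As at 1 day, limma called 0 members and 0% of all probes past an adjusted p of 0.05, with a smallest adjusted p among members of 1.0. Without adjustment, again 0 members had a p under 0.05, against 2% of all probes. The groups did not overlap for 3 members, against 13.4% of all probes (6.46% higher and 6.97% lower): Rpl36a and a probe of Rpl9 were lower, and Rpl30, named here after its values were seen, was higher. The comparisons at 1 and 10 days use the same 2 control mice.

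Between 10 days and 1 day, 34 members were higher and 31 lower at 10 days, against 48.6% higher and 51.4% lower among all probes, with a median of 0.00 and a range between -0.18 and 0.16. No control array enters this contrast. By limma 0 members and 0% of all probes passed an adjusted p of 0.05, while 2 members, Rpl4 and a probe of Rpl9, had an unadjusted p under 0.05, against 3.5% of all probes. The groups did not overlap for 3 members, against 8.39% of all probes (4% higher and 4.39% lower): Rpl4 was higher at 10 days, and Rpl22 and Rpl38, the second of these named after its values were seen, were lower.

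A p that misses the threshold does not show equality, so the intervals were counted as well. The 95% interval of the change lay within 0.26 of 0 on the log2 scale, about 1.2-fold, for 40 members at 1 day against control and for 44 at 10 days against control. It did so for 53 members between the times. The shares among all probes were 77.6%, 79.8% and 83.2% in that order. Within 0.58, about 1.5-fold, lay the intervals of 64 members at 1 day, 64 at 10 days and 65 between the times, against 98.6%, 98.8% and 99% of all probes. The exception in both comparisons with control was Rpl27a. For the members outside the narrower limit, a 1.2-fold change lies inside the interval, and the number of arrays limits this precision. The offset compresses changes of dim probes and so narrows their intervals, and a narrow interval there does not show an unchanged transcript. Rpl3l, at 1.05 to 1.24 times the blank mean, had an interval of -0.11 to 0.06 at 1 day against control. The median SD over all tested probes was 0.029 in the dimmest 10% and 0.104 in the brightest 10%. The counts and shares therefore depend on level as well as on change.

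**Figure D2:**
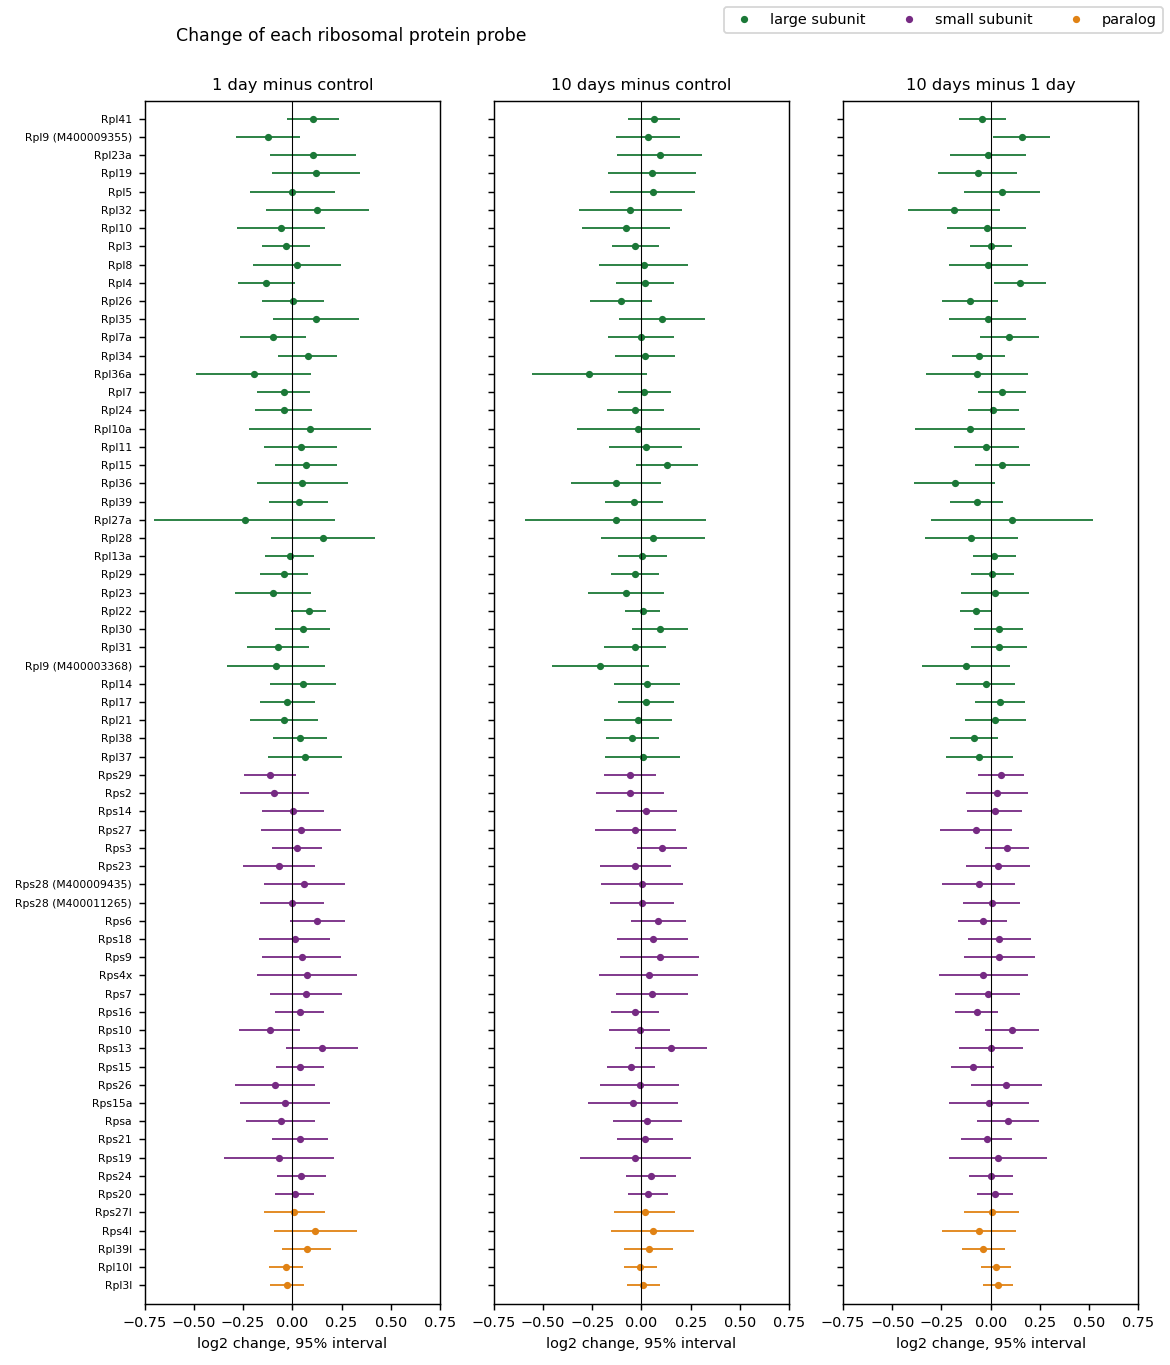
Log2 change of each of the 65 ribosomal protein probes with its 95% limma interval (x axis, log2) at 1 day against control, at 10 days against control and at 10 days against 1 day; rows are probes, ordered by mean intensity within the large subunit, the small subunit and the paralogs. Changes lie between -0.26 and 0.16, and 2 intervals, those of Rpl4 and of a probe of Rpl9 between the times, leave out 0.

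Both subunits gave medians close to 0. Of the 36 large-subunit probes, 20 were higher and 16 lower at 1 day (median 0.01), and 19 were higher and 17 lower at 10 days (median 0.01). Between the times 16 were higher and 20 lower at 10 days, with a median of -0.01. Of the 24 small-subunit probes, 15 were higher and 9 lower at 1 day (median 0.02), 14 higher and 10 lower at 10 days (median 0.01), and 15 higher and 9 lower between the times (median 0.01).

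Among large-subunit genes, Rpl36a, on the X chromosome, had the lowest value against control at 10 days. Its log2 intensity was 11.54, 11.95 and 11.84 in 10-day mice, against 11.95 and 12.12 in controls. It was 11.93, 11.90 and 11.70 in 1-day mice. All 6 trehalose arrays lay below the lower control, replicate 2 of 10 days by a narrow margin (11.946 against 11.952). Replicate 1 of 10 days was the lowest. The change was -0.26 ± 0.13 (SE; 95% interval -0.56 to 0.03; 0.833-fold) at 10 days and -0.20 ± 0.13 (-0.49 to 0.09) at 1 day, with an adjusted limma p of 1.0 for both. The 10-day change was -0.18 within the high-slope arrays (1 mouse against 1) and -0.26 within the low-slope arrays (2 against 1). It was -0.15 without replicate 1 of 10 days, -0.35 without control replicate 1 and -0.18 without control replicate 2. The 1-day change was -0.28 without control replicate 1 and -0.11 without control replicate 2.

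Rpl27a, a core protein of the large subunit, had the largest spread between mice of a group, with a pooled SD of 0.27. Its log2 intensity was 10.34, 10.41 and 10.13 in 1-day mice, against 10.42 and 10.65 in controls. In 10-day mice it was 9.96, 10.60 and 10.64. Replicate 1 of 10 days was the lowest array and the other two 10-day mice lay within the control values. The change was -0.24 ± 0.20 (SE; 95% interval -0.70 to 0.22) at 1 day and -0.13 ± 0.20 (-0.59 to 0.33) at 10 days. The 1-day change was -0.36 without control replicate 1 and -0.13 without control replicate 2. The 10-day change was 0.09 without replicate 1 of 10 days, -0.25 without control replicate 1 and -0.02 without control replicate 2.

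Rpl4, which lines the tunnel through which the growing protein leaves the ribosome, was 12.61, 12.57 and 12.72 in 10-day mice, against 12.55, 12.49 and 12.42 in 1-day mice. Controls gave 12.56 and 12.67. Each 10-day mouse lay above each 1-day mouse, and the controls lay above the 1-day mice and overlapped with the 10-day mice. Both separations from the 1-day mice were narrow at the closest arrays (12.571 and 12.563 against 12.555). The change was 0.15 ± 0.06 (SE; 95% interval 0.02 to 0.28; 1.11-fold) between the times, with an adjusted limma p of 1.0. Within the high-slope arrays, 1 mouse of 10 days against 3 of 1 day, it was 0.08. Against control Rpl4 was -0.13 ± 0.06 at 1 day and 0.02 ± 0.06 at 10 days. The 1-day value was -0.19 without control replicate 1 and -0.08 without control replicate 2.

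The 2 probes of Rpl9, another large-subunit protein, gave opposite signs between the times. The brighter (M400009355) read 13.47, 13.30 and 13.42 in 10-day mice, against 13.24, 13.16 and 13.32 in 1-day mice, with 13.42 and 13.30 in controls. The 10-day and 1-day values overlapped, with a change of 0.16 ± 0.06 (SE; 95% interval 0.01 to 0.30) and an adjusted limma p of 1.0. Within the high-slope arrays this difference was 0.06. Against control the brighter probe gave -0.12 ± 0.07 at 1 day, with overlap, and 0.03 ± 0.07 at 10 days. The dimmer (M400003368), at 5.27 to 7.47 times the blank mean, read 7.58, 7.64 and 7.44 in 10-day mice, against 7.78 and 7.74 in controls, a change of -0.21 ± 0.11 (-0.46 to 0.04). Its 10-day mice lay below both controls, while its 1-day mice (7.59, 7.90 and 7.55) lay on both sides of them. At 1 day against control the dimmer probe gave -0.08 ± 0.11, so both probes were lower there. Its 10-day change was -0.10 within the high-slope arrays (1 mouse against 1) and -0.27 within the low-slope arrays (2 against 1). Between the times the dimmer probe gave -0.13 ± 0.10, and -0.04 within the high-slope arrays. The other gene with 2 probes, Rps28, gave 0.06 ± 0.09 and 0.00 ± 0.07 at 1 day and 0.00 with both probes at 10 days.

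Rpl22, which also binds small viral RNAs and is needed for T-cell development, varied little between mice. Its log2 intensity was 8.58, 8.64 and 8.64 in 1-day mice, against 8.57 and 8.51 in controls, and 8.55, 8.53 and 8.56 in 10-day mice. The 1-day mice lay above all other mice, by a small margin. The change was 0.08 ± 0.04 (SE; 95% interval -0.01 to 0.17) at 1 day and 0.01 ± 0.04 at 10 days, and 10 days against 1 day gave -0.08 ± 0.03. The 1-day change was 0.12 without control replicate 1 and 0.05 without control replicate 2.

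Rps6 carries the phosphorylation sites of the S6 kinases, which act downstream of mTORC1, and its annotated start opens the pyrimidine run shown above. Its log2 intensity was 12.66, 12.60 and 12.69 in 1-day mice, against 12.54 and 12.51 in controls. It was 12.51, 12.62 and 12.71 in 10-day mice. The 1-day mice lay above both controls, and the 10-day mice overlapped with them. The change was 0.13 ± 0.06 (SE; 95% interval -0.01 to 0.27; 1.09-fold) at 1 day and 0.09 ± 0.06 (-0.05 to 0.23) at 10 days, with an adjusted limma p of 1.0 for both.

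Rps13, another small-subunit protein, had the highest value of that subunit in both comparisons with control. It read 12.02, 12.01 and 11.89 in 1-day mice, against 11.88 and 11.77 in controls, and 12.10, 11.97 and 11.85 in 10-day mice. The 1-day mice lay above both controls, the third of them by a narrow margin, and the 10-day mice overlapped with the controls. The change was 0.15 ± 0.08 (SE; 95% interval -0.03 to 0.33) at either time, and between the times 0.00 ± 0.07. At both times it was 0.20 without control replicate 1 and 0.10 without control replicate 2. Rps3, which lies at the entry of the messenger RNA channel, read 12.75, 12.86 and 12.79 in 10-day mice, against 12.63 and 12.77 in controls. The groups overlapped, with a change of 0.11 ± 0.05 (-0.02 to 0.23) at 10 days and 0.02 ± 0.05 at 1 day. The 10-day change of Rps3 was 0.04 without control replicate 1 and 0.17 without control replicate 2.

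Rps29 lay -0.11 ± 0.06 (SE) from control at 1 day and -0.06 ± 0.06 at 10 days. Without control replicate 1 these were -0.04 and 0.02, and without control replicate 2 they were -0.19 and -0.13, so 1 control mouse sets the size and, at 10 days, the sign. Within the high-slope arrays the 1-day comparison is the same as the one without control replicate 1. At 10 days Rps29 was 0.03 within the high-slope arrays and -0.14 within the low-slope arrays. Rps10 was 0.11 ± 0.06 between the times, but 0.02 within the high-slope arrays.

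Further large-subunit genes had large values in a contrast without separation of the groups. Rpl28 read 9.24, 9.47 and 9.66 in 1-day mice, against 9.33 and 9.27 in controls, a change of 0.16 ± 0.11 (SE; 95% interval -0.11 to 0.42), and its 1-day mice lay on both sides of the controls. Rpl32 read 12.60, 12.83 and 12.60 in 10-day mice, against 12.94, 12.64 and 12.99 in 1-day mice, a change of -0.18 ± 0.10 with overlap. Within the high-slope arrays, 1 mouse of 10 days against 3 of 1 day, the change of Rpl32 was -0.03. Rpl36 gave -0.18 ± 0.09 in the same contrast, and Rpl26 -0.11 ± 0.06, with -0.32 and -0.11 within the high-slope arrays. Rpl15, with the longest pyrimidine run shown, gave 0.13 ± 0.07 (-0.03 to 0.29) at 10 days against control, with 0.07 without control replicate 1 and 0.18 without control replicate 2. Rpl35 gave 0.12 ± 0.09 at 1 day and 0.11 ± 0.09 at 10 days, against controls of 12.41 and 12.10 that lay far apart. Without control replicate 1 these changes of Rpl35 were 0.28 and 0.26, and without control replicate 2 they turned to -0.03 and -0.05.

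**Figure D3:**
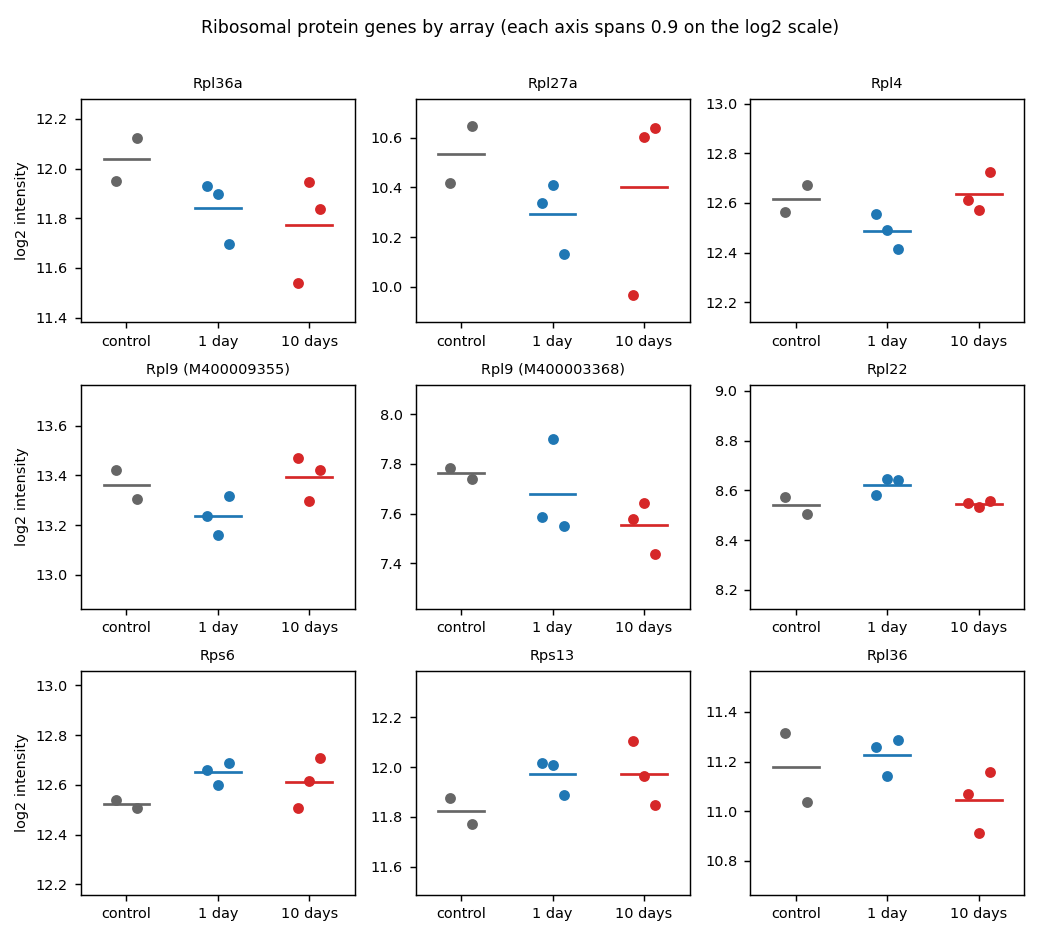
Log2 intensity (y axis; each panel spans 0.9) on each of the 8 arrays for ribosomal protein genes described in the text, by group, with the group mean as a bar. Rpl36a is lower in trehalose mice at both times and Rpl4 is higher at 10 days than at 1 day. Both have a narrow margin between the closest arrays and do not pass the test. For Rpl27a, 1 of the 3 mice of 10 days sets the spread.

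Of other members known for functions beyond protein synthesis, or used as standards, Rpl5, Rpl11 and Rpl13a gave estimates near 0. Rpl5 and Rpl11 bind Mdm2 when ribosome assembly is disturbed and so raise p53. Rpl5 read 13.01, 12.74 and 12.65 in 10-day mice, against 12.74 and 12.75 in controls, and the change was 0.06 ± 0.09 (SE; 95% interval -0.16 to 0.27), with 0.00 ± 0.09 at 1 day. Rpl11 gave 0.02 ± 0.08 at 10 days and 0.04 ± 0.08 at 1 day. Rpl13a, often used as a standard in quantitative PCR, read 9.39, 9.38 and 9.35 in 10-day mice and 9.41, 9.40 and 9.25 in 1-day mice, against 9.39 and 9.34 in controls. Its 10-day values lay among those of the controls or within 0.01 of them. Its changes were 0.00 ± 0.05 (-0.12 to 0.13) and -0.01 ± 0.05 (-0.14 to 0.11).

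Rpl3, next to the peptidyl transferase centre, gave -0.03 ± 0.05 (SE; 95% interval -0.15 to 0.09) at both times. Rpl10, which joins late in the assembly of the large subunit, gave -0.08 ± 0.10 (-0.30 to 0.15) at 10 days and -0.06 ± 0.10 at 1 day. Rpsa, also known as a laminin receptor, gave 0.03 ± 0.08 at 10 days and -0.06 ± 0.08 at 1 day. Rps14 and Rps19, whose loss causes disorders of red cell formation in humans, gave 0.02 ± 0.07 and -0.03 ± 0.12 at 10 days, and 0.00 ± 0.07 and -0.07 ± 0.12 at 1 day. The X-linked Rps4x and Rpl39 gave 0.04 ± 0.11 and -0.04 ± 0.06 at 10 days, and 0.07 ± 0.11 and 0.03 ± 0.06 at 1 day.

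The 5 paralogs were 4 higher and 1 lower than in controls at 10 days, with a median of 0.02, and 3 higher and 2 lower at 1 day, with a median of 0.01. The largest value was that of Rps4l, which RefSeq lists as a transcribed pseudogene and whose symbol the rule takes in. It read 8.56, 8.46 and 8.24 in 1-day mice, against 8.22 and 8.39 in controls, a change of 0.12 ± 0.09 (SE; 95% interval -0.10 to 0.33) with overlap. It was 0.03 without control replicate 1 and 0.20 without control replicate 2. Rps27l, a p53 target gene, gave 0.01 ± 0.07 at 1 day and 0.02 ± 0.07 at 10 days. Rpl39l, known from the testis, gave 0.07 ± 0.05 and 0.04 ± 0.05. Ribosomal protein genes have many near-identical processed pseudogenes, and which of these a probe also reads was not analysed here.

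Genes with and without a pyrimidine run at the annotated start gave overlapping values. The classes follow the annotated base only and do not separate genes with the tract from genes without it. The 11 probes of genes with such a start had a median change of 0.04 at 1 day, 0.03 at 10 days and -0.02 between the times. The 40 other probes with a window had medians of 0.00 in all 3 contrasts, and the 14 probes of genes without a window had medians of 0.01, 0.01 and 0.02. Members of the 3 classes ranged between -0.26 and 0.16, and no test was made of these classes.

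With the settings used here, the members spread more between mice of a group than the array as a whole. With the blank mean subtracted, or in the authors' table, they spread less. The median pooled SD was 0.089 over the 65 probes, with single values between 0.027 for Rpl10l and 0.27 for Rpl27a, against 0.0639 over all tested probes. The spread on this scale grows with the level, and among the brightest 10% of probes the 43 members had a median SD of 0.0967, against 0.104 for all probes there. The ratio of the members' median SD to that of all probes was 1.39 with the offset, 0.757 with the blank mean subtracted and 0.799 in the authors' table. Next to Rpl27a, the largest SDs were those of Rpl10a (0.18), Rpl36a (0.16) and Rps19 (0.16), the last of these at 2.28 to 3.65 times the blank mean. Rpl10a read 11.62, 11.60 and 11.39 in 10-day mice and 11.78, 11.72 and 11.42 in 1-day mice, against 11.71 and 11.40 in controls, and each group held both high and low arrays.

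**Figure D4:**
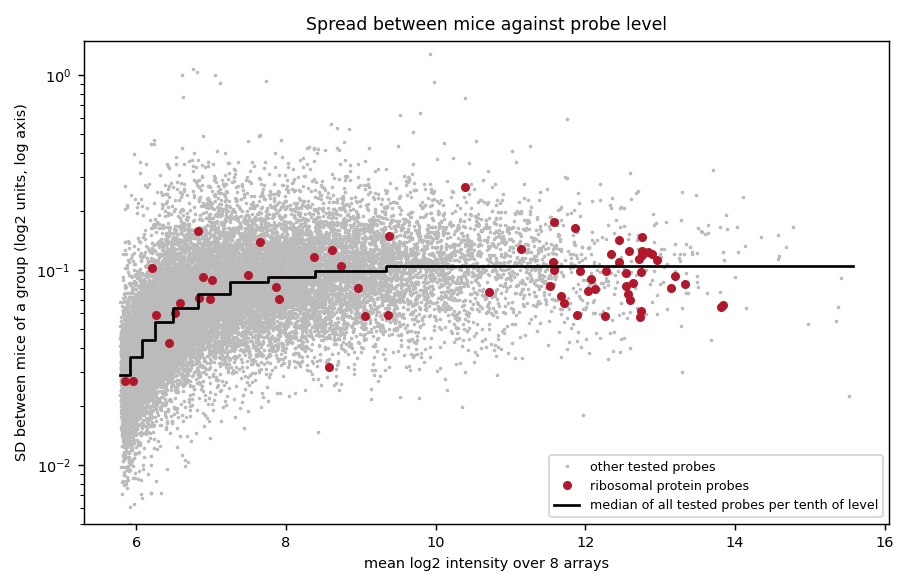
Pooled SD between mice of a group (y axis, in log2 units on a log axis) against mean log2 intensity (x axis) for ribosomal protein probes (red) and other tested probes (grey), with the median of all tested probes by level as a line. Most members sit at the bright end, where 43 of the 65 have a median SD of 0.0967 against 0.104 for all probes at that level, and Rpl27a stands highest of the members at 0.27.

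Pairs of members went both ways across the arrays. Over the 2080 pairs of member probes the mean Pearson correlation across the 8 arrays was 0.0085, against 0.0017 for all probes, and 49.6% of the pairs were above 0. The middle 50% of the pairs lay between -0.32 and 0.34. The pairs share the same 8 arrays and the same normalization, so this is a description only. A mean near 0 over pairs of both signs does not show that members vary independently. The first principal component of the members held 30.2% of their variance, and that of all probes 25.3%. Its scores lay between -0.74 and -0.10 on the 4 arrays whose descriptions carry the numbers 1 to 4, and between 0.21 and 0.57 on those numbered 5 to 8. Each group had arrays on both sides. These numbers run along the replicate numbers, and what they stand for is not stated in the labels.

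Medians over the members were also taken within the gain sets. In the high-slope set the median member change was 0.01 at 1 day against control (3 mice against 1, with 34 members higher and 31 lower). That comparison uses the same arrays as the one without control replicate 1, so it is no further check. At 10 days against control the median member change was 0.01 in the high-slope set (1 against 1) and -0.0031 in the low-slope set (2 against 1). Between the times it was -0.0050 in the high-slope set (1 against 3). With 1 control mouse in each set these values have no replicate check on the control side.

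Other translation genes, taken as lists, gave 0 probes past an adjusted p of 0.05 by limma in any of the 3 contrasts. The lists' medians between the times lay between -0.0042 and 0.0197. Of 15 probes for 13 of 14 listed elongation and termination factors, 8 were higher and 7 lower at 1 day (median 0.01), and 6 were higher and 9 lower at 10 days (median -0.03). Eif5a, which relieves stalling at runs of proline, had the lowest unadjusted p of these against control at both times. Its change was -0.27 ± 0.08 (SE; 95% interval -0.44 to -0.09) at 1 day and -0.15 ± 0.08 (-0.33 to 0.02) at 10 days, with an adjusted limma p of 1.0. Gspt1, a release factor partner, gave 0.20 ± 0.05 (0.07 to 0.32) between the times.

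Of 35 probes for 32 of 37 listed initiation factors, 21 were higher and 14 lower at both times against control (medians 0.02 and 0.01). Eif4a2, a helicase of the cap-binding complex, gave 0.22 ± 0.09 at 1 day, and Eif4b gave -0.11 ± 0.07 at 10 days. Between the times 18 of the 35 probes were higher and 17 lower. An unadjusted limma p under 0.05 was reached by 4 of them, 1 higher and 3 lower, against 3.5% of all probes. The higher was Eif2b5, part of the exchange factor that recharges initiation factors, with 0.13 ± 0.04. A further list held 18 regulators of S6 or of messenger RNAs with the pyrimidine tract, among them mTORC1 pathway genes, Rps6ka genes, Myc and Mycn. Of 15 probes for 14 of these 18, 6 were higher and 9 lower at both times (medians 0.00 and -0.02). Akt1 gave -0.15 ± 0.06 at 1 day, and Rps6ka3 gave 0.11 ± 0.05 at 10 days. Tsc2, an inhibitor of the mTORC1 pathway, gave -0.34 ± 0.21 (SE, with a 95% interval of -0.81 to 0.14) between the times.

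Of 46 probes for 43 of 44 listed genes of ribosome biogenesis and RNA polymerase I, 28 were higher and 18 lower at 1 day, and 25 were higher and 21 lower at 10 days (medians 0.02 and 0.01). Nop10, of the particles that modify ribosomal RNA, had the lowest unadjusted p of this list, with -0.21 ± 0.05 (SE; 95% interval -0.33 to -0.10) at 1 day. Wdr12, needed for large-subunit assembly, gave 0.15 ± 0.05 at 10 days, and Nop14 gave -0.10 ± 0.04 between the times. Of 79 probes for 76 of 76 listed mitochondrial ribosomal proteins, 44 were higher and 35 lower at 1 day, and 46 were higher and 33 lower at 10 days (medians 0.02 and 0.01). Mrpl16 gave -0.20 ± 0.05 (-0.32 to -0.09) at 1 day and -0.13 ± 0.05 at 10 days, with an adjusted limma p of 1.0 for both. Mrpl3 gave -0.15 ± 0.04 between the times. Of 8 probes for 8 of 12 listed other genes that encode or resemble ribosomal proteins, 5 were higher and 3 lower at both times. Among these Rps3a1 gave 0.12 ± 0.06 at 10 days, Rpl7l1 0.12 ± 0.05 at 1 day and Mrto4 0.05 ± 0.05 between the times. At an unadjusted p under 0.05 the 6 lists held between 0 and 8 probes in a contrast, the most being the mitochondrial list at 1 day with 6 higher and 2 lower of 79, against 3.65% of all probes.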

How the data were processed

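Each spot has an intensity, per the file headers the median of its pixels at 635 nm, taken at 3 gains that least-squares lines join. Per the labels' protocols, amplified RNA was labelled with Cy5. The authors also deposited processed linear intensities, with each array's median at 25.0, which served only as an alternative. No slide or scan date was found in the headers or labels.

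Spot medians were corrected by normexp (offset 50, fitted on all spots), the 10 failed probe spots were dropped, and arrays were quantile normalized and put on the log2 scale in R 4.3.3 with limma 3.58.1. Probes above the blank mean plus 2 SD on at least 2 arrays were tested (21583). All 8 arrays entered 1 fit of 3 groups (5 residual degrees of freedom) with eBayes and Benjamini-Hochberg adjustment at 0.05 over all tested probes. Each array is a separate mouse per the labels. The steps were tested on simulated data.

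Members and lists were chosen with earlier results of these data known. The rule for named members took, per comparison, the 4 highest and 4 lowest changes and the 3 lowest p, the 3 brightest and 3 dimmest probes, the 4 largest SDs, and a fixed set including the paralogs. Of each list the probe with the lowest p in each comparison was named. Gene names come from the platform annotation and sequences from RefSeq.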

Additional observations from a re-analysis of the deposited data

How the results depend on the processing

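With 2 control mice and 3 in each trehalose group, precision rests on the number of arrays, and for the dim probes on a signal close to the blanks. Under all 15 other settings and the 8 fits that each leave out 1 array, 0 members passed an adjusted p of 0.05 by limma in any comparison, and the smallest adjusted p of a member was 0.465, with the local background column between the times. Leaving out a control leaves 1 control array, whose spread is taken from the pooled estimate.

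The median member change at 1 day against control was 0.0407 with median scaling, 0.0311 with cyclic loess, -0.124 with the local background column and 0.0373 in the authors' table, where it is 0.0127 in the report. At 10 days against control it was -0.125 with the local background column. Between the times it was -0.0257 with median scaling, -0.0234 in the authors' table, 0.0201 with the background taken beside each spot, and between -0.0182 and 0.0174 when each array was left out in turn, lowest without replicate 3 of 1 day. After the all-probe median deviation of each array was subtracted, the highest array exceeded the lowest by 0.115 with median scaling. This range was 0.238 with the local background column and 0.102 in the authors' table. The ratio of the members' median SD to that of all probes was 0.757 with the blank mean subtracted, 0.799 in the authors' table and 3.28 with the local background column. Of 105 changes of named members, 41 turned sign with the local background column, and 0 to 21 under each of the other settings and left-out arrays, most without control replicate 1. The cause was not tested.

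Replicate numbers were tried as a block. Deviations of same-numbered mice correlated between -0.0247 and 0.263 over 7 pairs, 6 of them over 0.1, while the 14 other pairs lay between -0.315 and 0.213, 10 of them below 0. For 7 of the 8 arrays the highest correlation was with an array of the same number. Deviations within a group sum to 0, and those of the 2 controls are exact opposites. A positive correlation with 1 control (0.263) therefore forces a negative correlation with the other (-0.263). The counts are thus not independent and do not decide whether the numbers mark something shared. The labels do not say so, and not every pair exceeded 0.1. With the replicate block the median member change was 0.0236 at 1 day, 0.0084 at 10 days and 0.0020 between the times, and 0 members were called.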
